A study of Mus musculus with 4 samples.

Results

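The genes described here are the core of the Sonic hedgehog pathway in the mouse ureter: the ligand Shh, the receptors and co-receptors Ptch1, Boc and Cdon, the ligand-binding inhibitor Hhip, the signal transducer Smo, and the transcription factors Gli1, Gli2 and Gli3. They were chosen by gene name among the non-control probes of the 4 scanner files, which gave 9 genes and 14 probes of 39429 probes in all. All 9 genes had a probe above the detection limit, among 18179 genes tested. Ureters dissected from NMRI embryos at E18.5, shortly before birth, were compared between a conditional mutant, called cKO, that was Pax2-cre/+; Trp63(dN-flox/dN-flox), and a control that was Trp63(dN-flox/?). Both genotypes carried at least 1 floxed allele of the ΔN form of p63, a transcription factor of basal epithelial cells. The labels list no cre for the control and leave its second allele unstated. Pax2-cre is known to act in the nephric duct and the epithelium derived from it, and also in other tissues of the Pax2 lineage. The comparison asks which transcripts differ in the ureter when ΔNp63 is to be removed there.

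Each of the 4 arrays carried 1 cKO and 1 control RNA in 2 colours, with 200 ng of total RNA per labelling. The cKO was in the red channel (AlexaFluor647) on arrays 1 and 3 and in the green channel (AlexaFluor555) on arrays 2 and 4. Array 2 held a male pair and the others female pairs. The labels do not say whether an RNA came from 1 embryo or from a pool, so the spread behind each p-value may be partly technical. Trp63, the targeted gene, was lower in the cKO on each array, with a mean of -2.18 ± 0.50 for the log2 ratio of its brightest probe (SD over 4 arrays; adjusted p = 0.0021 by limma). Of its other probes, 2 were at -1.77 ± 0.42 and -1.44 ± 0.27, while the last was at -0.14 ± 0.10 with overlapping levels, and the mean of all probes was -1.38. The files do not say which of them lie in the deleted part. Array 1 stood apart in detection, with 90% of green and 82.6% of red spots well above background. Arrays 2 to 4 had 75% to 76.5% of green and 72.4% to 72.9% of red spots there, so values without it are given where it matters.

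In the Hedgehog pathway, a secreted ligand binds Patched receptors and thereby releases Smoothened from inhibition, after which Gli transcription factors switch on target genes. Ptch1, Gli1 and Hhip are themselves such targets, so their transcript levels are commonly used as a readout of pathway activity. In the developing ureter Shh is known to be made by the epithelium and received by the surrounding mesenchyme, which forms the smooth muscle coat.

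The probes that measured these transcripts are 60 bases long, and the files place them on the mm9 build. The sequences below show the probes on which the ligand and receptor results rest, written from the 5′ end, with the first 30 bases for all but the Ptch1 probe that has no stop codon in 1 of its frames.
Shh, chr5:28783983-28784042, minus strand: aatttattattgtgtgaactgtactcacag
Ihh, chr1:74991906-74991965, minus strand: gagggggaaatccatgggagaattttggga
Ptch1, brighter probe, chr13:63610298-63610357, minus strand: catttggatgttttaatttgtaaaagaaaa
Ptch1, second probe, chr13:63612879-63612938, minus strand: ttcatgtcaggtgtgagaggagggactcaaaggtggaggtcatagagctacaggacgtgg
Gli1, chr10:126766967-126767026, minus strand: ggggctgtatttagtctatgtatgttccag
The Shh probe and the brighter Ptch1 probe hold a stop codon in each of the 3 forward frames. The brighter Ptch1 probe is poor in G and C, at 21.7% of its bases, against 53.3% in the second. The array's design assigns the brighter probe to an Ensembl transcript and the second to the RefSeq transcript of Ptch1.

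Of the 9 genes, Shh and Ptch1 fell in the cKO ureters and none rose at a limma adjusted p under 0.05. The 2 falls of 9 stand beside 5.61% of all tested genes that fell, and the 0 rises beside 2.9% that rose. At an unadjusted p under 0.05, 2 members were lower, beside 12.8% of all genes, and 1, Boc, was higher, beside 10.8%, which is near the share over all genes. In the same 2 genes all 4 cKO levels lay below all 4 control levels, as in 6.18% of all genes, and in no member did they all lie above, as in 3.65%. The ratio was negative on 4 arrays in 3 members (Shh, Ptch1 and Cdon, beside 16.3% of all genes) and positive on 4 arrays in 1 (Boc, beside 14.3%). The median log2 ratio over the 9 members was -0.07, against 0 over all genes. Each of the 9 was well above background on 4 of 4 arrays in both genotypes.

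**Figure D1:**
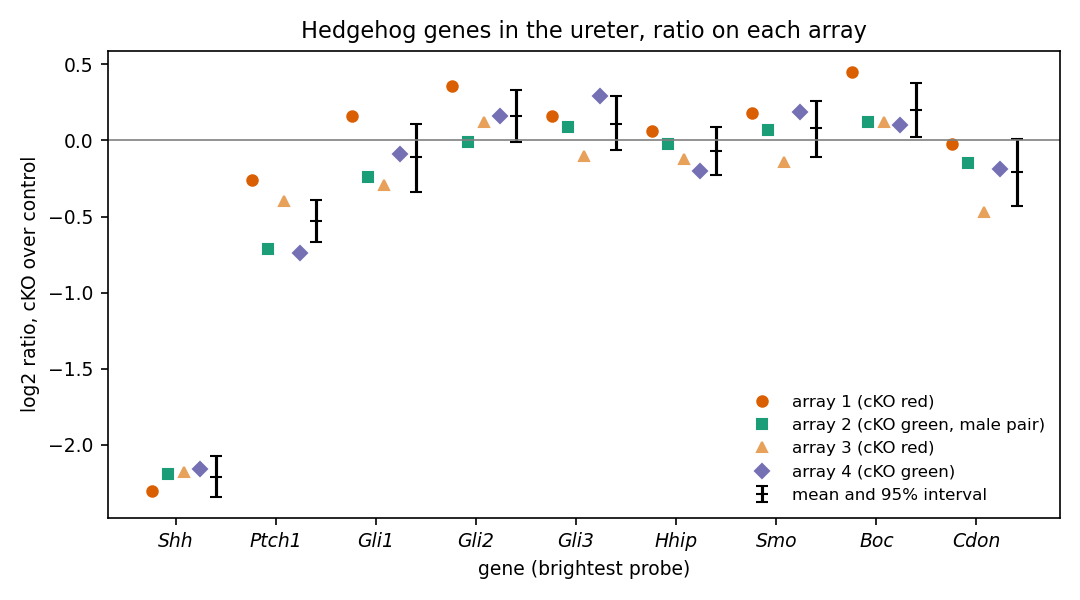
The log2 ratio of cKO over control is plotted for each of the 9 Hedgehog genes, with 1 symbol per array and the mean with its 95% interval from the limma fit as a bar. Shh lies between -2.3 and -2.16 on every array, Ptch1 between -0.74 and -0.26, and the 4 points of each other gene stay between -0.47 and 0.45.

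Shh, the ligand, was the member with the largest difference and was lower in every cKO RNA. It was measured by only 1 probe. Its normalized intensity in the control RNAs of arrays 1 to 4 was 10.98, 11.62, 11.61 and 11.62 on the log2 scale. In the cKO RNAs it was 8.68, 9.44, 9.43 and 9.47. The 2 genotypes did not overlap, and the array 1 values were the lowest in each of them. The log2 ratio was -2.3, -2.19, -2.18 and -2.16 on arrays 1 to 4, a mean of -2.21 ± 0.07 (SD, n = 4), which is a 4.62-fold fall (limma adjusted p = 0.000161, 95% interval -2.34 to -2.07). Without array 1 it was -2.18 (adjusted p = 0.00184). Shh had the 19th lowest ratio of the 18179 genes. The ratio was nearly the same in both dye orientations, at -2.24 with the cKO in red and -2.17 with the cKO in green.

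Part of the epithelial marker genes also fell in the cKO. In whole ureters, fewer Shh-producing cells and less Shh RNA per cell cannot be told apart. Of 22 markers shared by epithelia, 9 fell, none rose and 13 did not pass, beside 5.61% of all genes that fell and 2.9% that rose. Their median log2 ratio was -0.49, with -0.92, -0.18, -0.4 and -0.59 on arrays 1 to 4, and single ratios ran from -1.23 to 0.28. The lowest p-values were those of the keratin Krt7 (-1.22 ± 0.35, limma adjusted p = 0.00559) and the epithelial transcription factor Grhl2 (-1.23 ± 0.38, adjusted p = 0.00803). The brightest marker, the keratin Krt8, was at 0 ± 0.36 (adjusted p = 0.996). The summed level of the 22 markers was 18.91 to 18.99 in the control and 18.11 to 18.85 in the cKO RNAs. Of 12 basal cell markers, which include Trp63 itself, all 12 fell, beside 5.61% of all genes, with a median of -2.21. The basal keratins Krt5 (-2.86 ± 0.10) and Krt15 (-2.55 ± 0.13) were among them, and the summed level was 17.41 to 17.67 in the control and 15.19 to 15.68 in the cKO. None of 6 markers of superficial urothelial cells passed the test, where 3 were lower at an unadjusted p under 0.05 (12.8% of all genes), and their median was -0.34. The brightest of them, the uroplakin Upk3a, was at -0.22 ± 0.33 (adjusted p = 0.386), and Upk1a was at -0.67 ± 0.45 (adjusted p = 0.0508). Within each array the Shh ratio lay below the median ratio of the shared epithelial markers, by -1.38, -2.01, -1.78 and -1.57 on arrays 1 to 4 (mean -1.68 ± 0.27). It lay close to the median of the basal cell markers. That median was -2.19, -1.8, -2.18 and -2.2 on arrays 1 to 4, and the Shh ratio was -2.3, -2.19, -2.18 and -2.16. The part of these cell markers in the Shh difference was not tested further.

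The 5 genes whose 4 ratios lay closest to those of Shh, by the root mean square difference over the 4 arrays among 17275 genes with a standard symbol, were Sox15, Wnt10a, Upb1, Aldh1a7 and Serpinb5. The difference from Shh ran from 0.147 for Sox15, a SOX family transcription factor, to 0.21 for Serpinb5, the epithelial serpin also called maspin. Sox15 is also among the basal cell markers counted above. Wnt10a, a secreted Wnt ligand, was at 0.158, with a log2 ratio of -2.13 ± 0.14. A ratio near that of Shh follows from the way these genes were chosen.

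Among the other 7 genes for Hedgehog ligands, their modification and their release, Ihh rose, Scube2 fell, and 5 did not pass the test, with a list median of 0.01. Over all genes 2.9% rose and 5.61% fell. Ihh encodes Indian hedgehog, a second ligand for the same receptors, and like Shh it was measured by only 1 probe. Its normalized log2 intensity was 7.58, 8.04, 7.98 and 8.16 in the control and 9.04, 9.89, 10.16 and 10.23 in the cKO RNAs of arrays 1 to 4. Every cKO value was above every control value, and both genotypes were well above background on 4 arrays. The log2 ratio was 1.46, 1.85, 2.17 and 2.07, a mean of 1.89 ± 0.32 (SD, n = 4) and a 3.7-fold rise (adjusted p = 0.00183, 95% interval 1.57 to 2.2). Without array 1, where the rise was smallest, it was 2.07 (adjusted p = 0.00257). The Ihh ratio was thus positive on the same 4 arrays on which the Shh ratio was negative. The intensities of different probes give no order of the amounts of the 2 ligands.

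Some markers of liver and the adrenal cortex gene Hsd3b1 rose in the cKO, while the kidney markers did not move together. Of 9 hepatocyte markers that could be tested, of 10 listed, 5 rose and none fell (median 1.71), beside 2.9% and 5.61% of all genes. Among those that rose were Ahsg (1.77 ± 0.85, limma adjusted p = 0.0357) and Afp (1.93 ± 0.98, adjusted p = 0.0388), which encode secreted liver proteins. The summed level of the 9 was 13.54 to 15.38 in the control and 14.79 to 17.75 in the cKO RNAs, so the genotypes overlapped. The list median was 2.26, 2.56, 1.37 and 0.61 on arrays 1 to 4, highest on arrays 1 and 2. The Ihh ratio was 1.46, 1.85, 2.17 and 2.07, highest on arrays 3 and 4. Of 6 adrenal cortex markers (median 0.39), 4 did not pass, with ratios of 0.06 to 0.4. The steroid synthesis gene Hsd3b1 rose (1.84 ± 0.73, limma adjusted p = 0.0209), at 2.47, 2.49, 1.28 and 1.14 on arrays 1 to 4. Cyp11b1 also passed the threshold, but it was well above background on 4 arrays in the cKO and on 1 in the control, so it was tested only through the cKO and is not counted as support. The summed level of the 6 was 10.67 to 10.88 in the control and 10.99 to 11.74 in the cKO. This sum includes Cyp11b1 and is likewise not counted as support. Of 8 kidney markers only 4 could be tested, and Cubn, an endocytic receptor of the proximal tubule, rose (2.27 ± 0.52, limma adjusted p = 0.00314). The Cubn ratio was 1.54, 2.64, 2.64 and 2.27 on arrays 1 to 4, lowest on array 1, as was the Ihh ratio. The other 3 did not pass and had ratios of -0.55 to -0.05, among them -0.55 ± 0.71 for Slc34a1, a phosphate transporter of the proximal tubule, and the median of the 4 was -0.28. The summed kidney level, in which Cubn was the brightest gene, was 11.14 to 12.11 in the control and 12.73 to 12.92 in the cKO. The nephron markers Umod and Slc12a1 were not well above background on all arrays of either genotype. The part of such tissue in the Ihh difference was not tested.

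Scube2 encodes a secreted protein that helps release the lipid-modified ligand from cells. The brighter of its probes gave log2 intensities of 13.72, 13.83, 14.05 and 14.01 in the control and 12.93, 13.47, 13.24 and 13.11 in the cKO RNAs. The genotypes did not overlap, and the ratio was smallest on array 2, the male pair. The log2 ratios of -0.79, -0.36, -0.82 and -0.9 gave a mean of -0.72 ± 0.24 (SD, n = 4; adjusted p = 0.0143), a 1.64-fold fall. A second Scube2 probe was at -0.64 ± 0.19 (adjusted p over probes 0.0102). The call was lost without array 1 (adjusted p = 0.0603), without array 3 (0.0575) and with the deposited value table (0.0516). The related Scube3, named after its values were seen, was at 0.38 ± 0.18 (adjusted p = 0.0526).

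Ptch1, the receptor that is also a target of the pathway, fell more moderately than Shh. The brighter of its 2 probes had log2 intensities of 10.83, 11.14, 11.13 and 11.17 in the control RNAs of arrays 1 to 4. The cKO RNAs were at 10.57, 10.43, 10.73 and 10.43. All cKO values were below all control values, with the smallest gap between the control of array 1 and the cKO of array 3. The log2 ratios of -0.26, -0.71, -0.4 and -0.74 gave a mean of -0.53 ± 0.24 (SD, n = 4), a 1.44-fold fall (adjusted p = 0.00647, 95% interval -0.67 to -0.39). Without array 1 the ratio was -0.56 (adjusted p = 0.0237). Ptch1 ranked 625th from the lowest ratio of 18179 genes.

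The Ptch1 ratio of this probe split by dye, at -0.33 with the cKO in red and -0.73 with the cKO in green. The SD includes that split, whereas the p-value and interval rest on the spread within an orientation. With the dye left out of the model the adjusted p was 0.0149. The second Ptch1 probe, the one with a frame free of stop codons, gave log2 ratios of -0.37, -0.21, -0.82 and -0.65, which did not fall into the same dye pattern. Its mean was -0.51 ± 0.28 (SD, n = 4), close to that of the brighter probe, but it missed the threshold (adjusted p over probes 0.0545). Its control levels of 9.86, 9.22, 9.92 and 9.67 overlapped the cKO levels of 9.5, 9.01, 9.1 and 9.01. With both probes averaged the Ptch1 ratio was -0.52 (adjusted p = 0.0175).

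The 5 genes closest to the 4 Ptch1 ratios were Slain1, Ccdc92, Mocos, Phlda3 and Usp27x, with root mean square differences of 0.036 to 0.102. Each of the 5 was lower on each array, with mean log2 ratios of -0.55 to -0.48. Both follow from choosing genes by closeness to Ptch1 and are not counted as support. Slain1, a microtubule-associated protein gene and the closest, had ratios of -0.22, -0.69, -0.35 and -0.75. Its split between dye orientations, the same as in Ptch1, also follows from that choice.

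**Figure D2:**
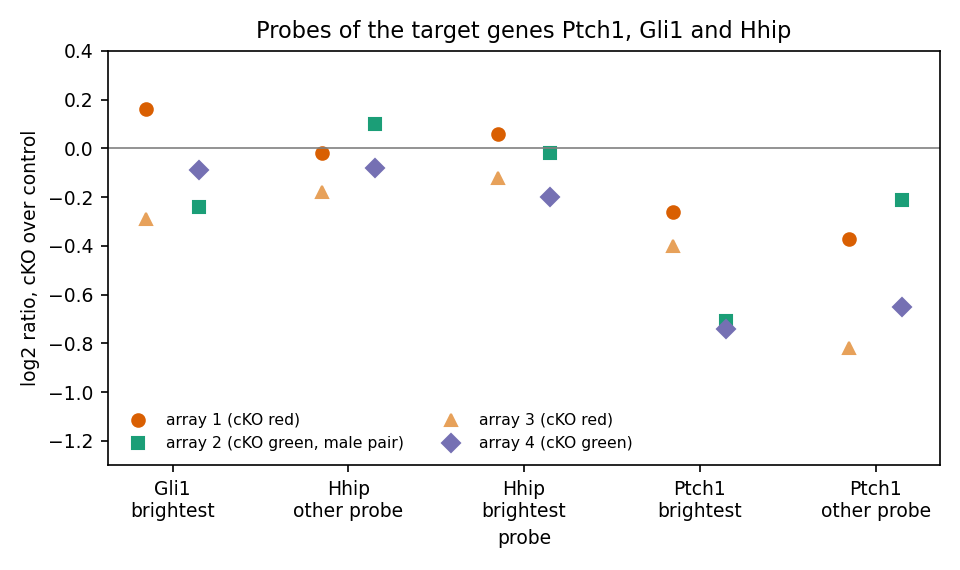
The log2 ratio of cKO over control is plotted for each probe above the detection limit of the target genes Gli1, Hhip and Ptch1, with 1 symbol per array and the arrays with the cKO in red on the left of each pair. Both Ptch1 probes are below 0 on each array, at -0.82 to -0.21, while the Gli1 probe and the 2 Hhip probes lie between -0.29 and 0.16.

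Gli1 and Hhip, the other members that are themselves pathway targets, did not pass the test. Gli1, the activator that is transcribed in response to the signal, had log2 intensities of 13.41, 13.1, 13.27 and 13.21 in the control and 13.57, 12.86, 12.98 and 13.13 in the cKO RNAs. The cKO RNA of array 1 was above all controls, and the cKO of arrays 2 and 3 below them. The log2 ratios of 0.16, -0.24, -0.29 and -0.09 gave a mean of -0.11 ± 0.2 (SD, n = 4; adjusted p = 0.523, 95% interval -0.34 to 0.11). Without array 1 it was -0.23 (adjusted p = 0.239), and without array 3 it was 0 (adjusted p = 0.997). A dim second Gli1 probe, assigned to a different transcript, was well above background in the control on 2 arrays and in the cKO on 0, and was not tested.

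Hhip, a membrane protein that binds the ligand and keeps it from Ptch1, had log2 intensities of 14.86 to 14.99 in the control and 14.66 to 14.98 in the cKO. Its log2 ratios were 0.06, -0.02, -0.12 and -0.2, with a mean of -0.07 ± 0.11 (adjusted p = 0.579, 95% interval -0.23 to 0.09) and -0.12 without array 1 (adjusted p = 0.579). The second Hhip probe was at -0.05 ± 0.11. The lower bounds of both the Gli1 and the Hhip interval lie above the Ptch1 ratio of -0.53. Within each array the brighter Ptch1 probe was lower than Gli1, by -0.42, -0.47, -0.11 and -0.65 on the log2 ratio. It was also lower than Hhip, by -0.32, -0.69, -0.28 and -0.54. These differences averaged -0.41 ± 0.22 and -0.46 ± 0.19 (SD, n = 4) and were not tested. The second Ptch1 probe was below Gli1 on arrays 1, 3 and 4 but not on array 2, where it was at -0.21 and Gli1 at -0.24.

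The ligand-binding co-receptors and Smo did not pass the test. Boc, a co-receptor that presents ligand to Ptch1, had the highest ratio of the 9 members, with log2 ratios of 0.45, 0.12, 0.12 and 0.1 and a mean of 0.2 ± 0.17 (adjusted p = 0.18, 95% interval 0.02 to 0.38). Its control levels of 12.45, 12.67, 12.86 and 12.86 overlapped the cKO levels of 12.91, 12.79, 12.98 and 12.96. The Boc ratio was highest on array 1 and was 0.11 without it (adjusted p = 0.538). Cdon, the co-receptor related to Boc, was below 0 on each array, with ratios of -0.02, -0.15, -0.47 and -0.19 and a mean of -0.21 ± 0.19 (adjusted p = 0.222, 95% interval -0.43 to 0.01). The Cdon value was -0.32 without array 1 (adjusted p = 0.0967) and -0.1 without array 3 (adjusted p = 0.526). Its dimmer second probe was at -0.03 ± 0.15. Smo, the transducer held back by Ptch1, was at 0.08 ± 0.16 (adjusted p = 0.612, 95% interval -0.11 to 0.26), with ratios of 0.18, 0.07, -0.14 and 0.19 and a value of -0.01 without array 1. On the second Smo probe, both RNAs of array 1 were higher, at 13.04 and 13.25, than the 6 RNAs of the other arrays at 11.94 to 12.07, and its mean ratio was 0.05 ± 0.14.

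Gli2 and Gli3, the transcription factors that act before Gli1 as main activator and main repressor, had mean ratios above 0 and did not pass the test. Gli2 had log2 intensities of 10.54, 11.22, 11.27 and 11.33 in the control and 10.91, 11.21, 11.39 and 11.48 in the cKO. Both RNAs of array 1 were the lowest of their genotype, and the genotypes overlapped. The Gli2 ratio was 0.16 ± 0.15 (adjusted p = 0.237, 95% interval -0.01 to 0.33), with 0.36 on array 1 and -0.01 to 0.16 on the others, and was 0.1 without array 1 (adjusted p = 0.649). Gli3 was at 0.11 ± 0.16 (adjusted p = 0.416, 95% interval -0.06 to 0.29), with ratios of 0.16, 0.09, -0.1 and 0.29, and was 0.05 without array 1 (adjusted p = 0.863).

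**Figure D3:**
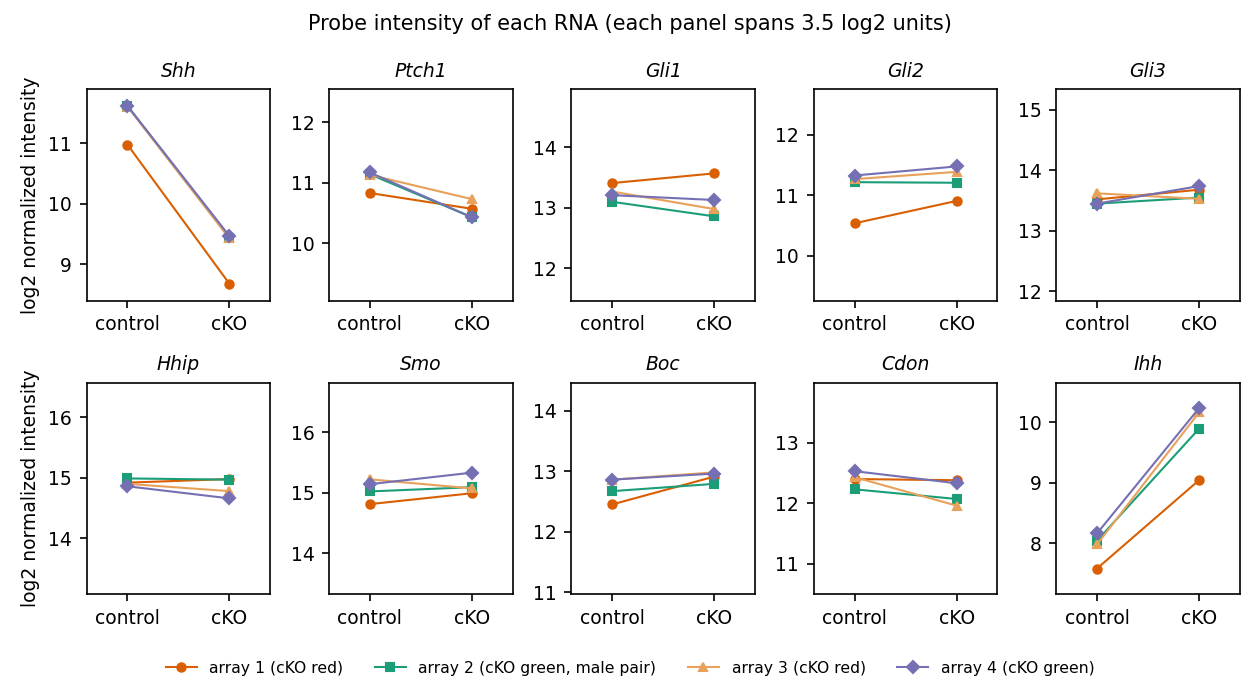
The normalized log2 intensity of the 9 Hedgehog genes and of Ihh is plotted for each control and cKO RNA, with a line joining the pair of each array and each panel spanning the same number of log2 units. The Shh lines drop from 10.98 to 11.62 to 8.68 to 9.47, the Ihh lines climb from 7.58 to 8.16 to 9.04 to 10.23, and array 1 lies below the others for Shh, Gli2 and Ihh in both genotypes.

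Of 43 further genes of the pathway, 1 rose (Ihh), 2 fell (Scube2 and Ccnd2) and 40 did not pass the test. These counts stand beside 2.9% of all genes that rose and 5.61% that fell. The median log2 ratio of the 43 genes was 0.03. None of 9 other genes of ligand reception passed (limma), with 1 higher and 0 lower at an unadjusted p under 0.05, beside 10.8% and 12.8% of all genes, and a median of 0.05. The brightest of them was Gas1, a co-receptor anchored in the membrane (0.16 ± 0.14, adjusted p = 0.254). None of 13 genes of intracellular signalling and cilium transport passed, with 1 higher and 1 lower at an unadjusted p under 0.05, beside the same shares, and a median of 0.03. The brightest were the casein kinase gene Csnk1a1 (-0.09 ± 0.03, adjusted p = 0.352) and Spop, a ubiquitin ligase adaptor for Gli proteins (0.03 ± 0.11, adjusted p = 0.81).

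Among 14 genes listed as Hedgehog targets outside the 9 members, 1 fell, none rose and 13 did not pass, with a median of 0.03. The 1 fall stands beside 5.61% of all genes, and the 0 rises beside 2.9%. At an unadjusted p under 0.05 (limma), 1 was higher and 2 were lower, beside 10.8% and 12.8% of all genes. Ccnd2, a D-type cyclin of the cell cycle, had log2 intensities of 15.32, 15.14, 15.49 and 15.24 in the control and 14.83, 14.88, 14.69 and 14.69 in the cKO RNAs. The genotypes did not overlap. The mean log2 ratio was -0.53 ± 0.22 (SD, n = 4; adjusted p = 0.022), a 1.44-fold fall, with -0.49, -0.27, -0.8 and -0.55 on arrays 1 to 4. The call was lost without array 3 (adjusted p = 0.0735), without array 4 (0.0842) and with the deposited value table (0.0702). Of the genes with known roles in ureter mesenchyme, 2 were named after their values were seen. The growth factor gene Bmp4 was at -0.18 ± 0.13 (limma adjusted p = 0.178), with -0.14, -0.25, -0.33 and -0.02 on arrays 1 to 4. The transcription factor gene Foxf1 was at -0.08 ± 0.30 (adjusted p = 0.757). The related cyclin gene Ccnd1, also named after its values were seen, was at 0.29 ± 0.18 (adjusted p = 0.103).

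**Figure D4:**
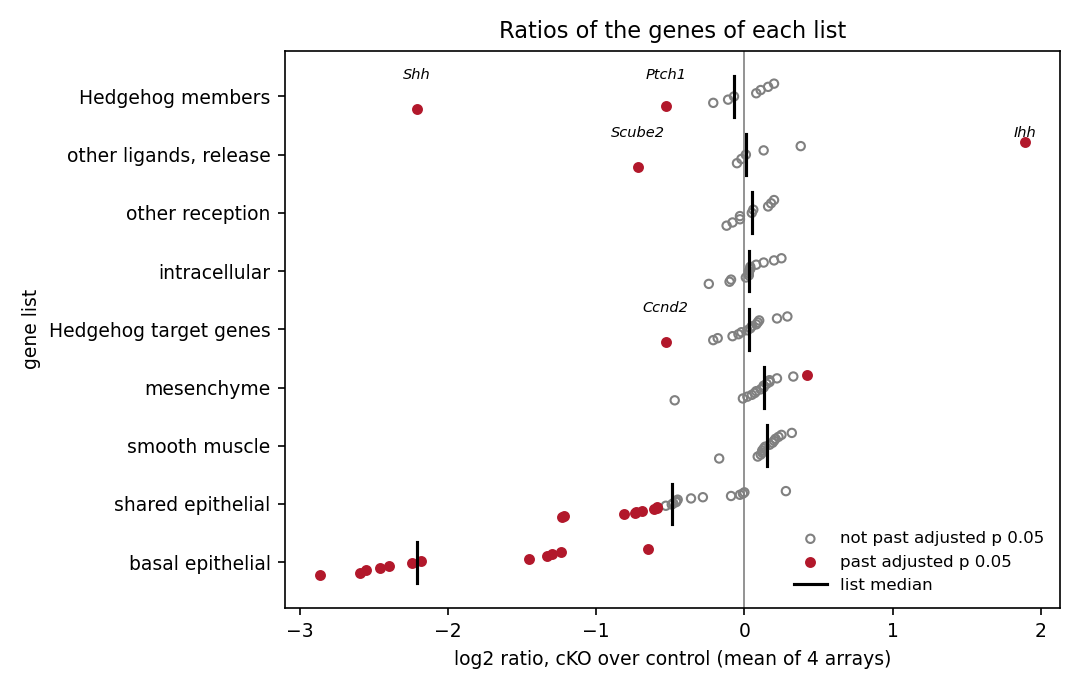
The mean log2 ratio of cKO over control is plotted for each gene of the Hedgehog lists and of 4 lists of cell type markers, with filled points for genes past an adjusted p of 0.05 and a vertical bar at the list median. The medians of the 4 other Hedgehog lists lie between 0.01 and 0.05, and those of the shared and basal epithelial markers at -0.49 and -2.21.

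No marker of the mesenchyme or the smooth muscle, where the signal is received, fell at the threshold. Of 15 markers of ureter mesenchyme, 1 rose, none fell and 14 did not pass, with a median of 0.13. Over all genes 2.9% rose and 5.61% fell. At an unadjusted p under 0.05 (limma), 4 of the 15 were higher and 0 lower, beside 10.8% and 12.8% of all genes. The transcription factor gene Gata6 was the one that rose at the threshold (0.42 ± 0.15, limma adjusted p = 0.0308), and its call was lost without array 1 (adjusted p = 0.116). It was also lost without array 2 (0.0558), without array 4 (0.124), with the deposited value table (0.081) and in separate channels with no replicate block (0.128). None of 14 smooth muscle markers passed, with 6 higher and 0 lower at an unadjusted p under 0.05, beside 10.8% and 12.8% of all genes, and a median of 0.15. The brightest were Acta2 (0.14 ± 0.14, adjusted p = 0.213) and Tagln (0.12 ± 0.09, adjusted p = 0.308), which encode contractile proteins. The summed level of the mesenchyme list was 19.43 to 19.54 in the control and 19.54 to 19.73 in the cKO. That of the smooth muscle list was 19.45 to 19.74 and 19.73 to 19.86. Within each array the Ptch1 ratio lay below the median ratio of the mesenchyme markers, by -0.45, -0.83, -0.49 and -0.83 (mean -0.65 ± 0.21), and the Gli1 ratio by -0.03, -0.35, -0.38 and -0.17 (mean -0.23 ± 0.16). The endothelial list (6 genes, median 0.19, Kdr at 0.23 ± 0.12 and Cdh5 at 0.34 ± 0.42) and the leukocyte list (5 of 6 genes tested, median -0.06, Csf1r at -0.11 ± 0.07 and Cd68 at 0.06 ± 0.09) had no gene past the threshold. At an unadjusted p under 0.05, 3 endothelial genes were higher, beside 10.8% of all genes, and 0 leukocyte genes passed.

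The labels name array 2 as the male pair, and a term for it left the model 1 residual degree of freedom. With the dye in the model, that term is array 2 minus array 4. The difference was -0.19 to 0.17 across the 9 members, with adjusted p-values of 0.975 to 0.999 (limma). None of the 9 passed, and of all genes 0% did, with 860 at an unadjusted p under 0.05. For Shh the male pair was at -2.19 and the mean of the 3 female pairs at -2.21, and for Ptch1 these values were -0.71 and -0.47. Of the female pairs, only array 4 had the dye orientation of the male pair, and its Ptch1 ratio was -0.74.

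Gli proteins bind a short DNA motif, for which the letters GACCACCCA were searched on both strands of RefSeq promoter windows (GRCm38.p6, 250 bases before to 50 after the start of each gene). Entries were at hand for 6 of the 9 members, all but Shh, Gli1 and Boc. None of the 6 and none of 31 other Hedgehog genes held the motif in this window, against 0.289% of 27025 genes, with 1 chromosome left out of the count. With the last base free the share over all genes was 0.932%, and the count among the 6 members was still 0. At shares this low a count of 0 is likely for lists of this size. The search therefore cannot tell whether these genes have Gli sites.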

How the data were processed

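Spot intensities (mean signal and local background of each channel) and a log10 ratio per spot were deposited by the authors, who, per the file headers, had read the images by means of Agilent Feature Extraction (version 10.7.3.1, also in the submitters' processing notes). In the deposited value table each log2 ratio is cKO over control with an array median of 0, as found by setting it against the scanner values (slope 0.99 to 1). The authors' normalization of it is not given in these sources.

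From the intensities, background was corrected with normexp (offset 50), each array normalized by loess with control spots at weight 0, spots with an outlier flag (3.04% to 3.58%) left out and the 4 spots of a probe averaged. Median mean signals were 460.3 to 607.3 against backgrounds of 31 to 82, and no spot was saturated; precision is limited by having 4 arrays. Levels are the log2 intensities of each channel after loess and Aquantile normalization. Genes were named through RefSeq (28757 probes by accession, 3070 by symbol, 221 by older symbol, 1742 by the file's name, 5639 unnamed). A gene was tested where a probe was well above background in over 0.5 of its spots on all 4 arrays of a genotype, and its brightest such probe stood for it. Of the 14 member probes, 13 passed. Summed marker levels are log2 of the summed linear levels.

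Ratios were tested with limma 3.58.1 (R 4.3.3) in a model with a dye term (2 residual degrees of freedom, plus the prior), adjusted by Benjamini-Hochberg over all genes or all probes, with a threshold of 0.05. Tested on simulated data of 18179 genes for cKO over control, the fit recovered 100% of changes of -2, 90% of -1, 40% of -0.5 and 34% of 0.5. Pairing is by array, as both RNAs of a pair share it. Alternatives were other signals, scaling, filters, probe rules, no dye term, fits of separate channels (statmod 1.5.0) and each array left out.

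The members, lists and rules were chosen with earlier results of these data known. Named are the members, the other Hedgehog genes past the threshold with 1 sign on 4 arrays (otherwise the 2 brightest of a list), Trp63, the 5 genes closest to Shh and to Ptch1, and of each marker list the 2 lowest p-values past the threshold or the 2 brightest. Some genes under this rule are not reported here.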

Additional observations from a re-analysis of the deposited data

Results flagged for a closer look

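The ratios of Boc, the Hedgehog co-receptor, had 1 array far from the others: array 1 was at 0.45 and arrays 2 to 4 at 0.10 to 0.12, so that the gap took up 0.941 of the whole range, above Dixon's 95% critical value for 4 values. By chance about 1 group in 20 is marked in this way, and 9 genes were examined. Array 1 also had the highest share of spots well above background; its part in the Boc value was not tested. Without array 1 the Boc ratio was 0.11 (limma adjusted p = 0.538).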

How the results depend on the processing

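Under 12 alternatives, the 108 values of the 9 members all stayed on their side of the threshold, and all but 1 kept their sign. Shh ranged from -2.35 to -2.18 (limma adjusted p 5.56e-06 to 0.00311) and Ptch1 from -0.56 to -0.49 (0.000176 to 0.035). With an array left out, Smo (0.08) ranged from -0.01, without array 1, to 0.16, and Foxf1 (-0.08) from -0.23 to 0.07, with 0.01 without array 3 and 0.07 without array 2; the cause was not tested. Over all genes, 528 rose and 1019 fell. With the deposited value table these counts were 258 and 592, and with an array left out 281 to 350 and 552 to 759. With the array as a replicate block in a fit of separate channels (intraspot correlation 0.741) they were 1236 and 1732, and with no replicate block 120 and 437. Neither changed a member's call. Among the 43 other Hedgehog genes, 1 rose and 2 fell, beside 2.9% and 5.61% of all genes. The falls were 0 with the value table (3 at an unadjusted p under 0.05, limma), 0 to 3 with an array left out, and 3 with the block. The rises were 2 with scaling between arrays, 2 with no dye term, 1 to 2 with an array left out and 3 with the block. With 4 arrays, a change of the size of Ptch1's was often missed in simulated data (40% recovered at -0.5), so a member that did not pass may differ by as much as its interval allows.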
